A study of Mus musculus with 6 samples.

Results

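The 54 genes described here encode the proteins that duplicate the genome and supply its building blocks. They were chosen by gene symbol, and all 54 are found among the 40481 genes of the count table. Their transcripts were compared between 3 wild-type and 3 *Scd2-m/-m* samples of bone marrow-derived macrophages (BMDMs), grown in culture from the marrow of mice.

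*Scd2* encodes a fatty acid desaturase that puts a double bond into saturated fatty acids. In *Scd2-m/-m* mice the floxed *Scd2* alleles are cut by a lysozyme M-Cre transgene, which is active in monocytes, macrophages and neutrophils, so other marrow cells keep the gene. The labels of the controls say only that they are wild type, and whether these carried floxed alleles or the Cre is not given. Both genotypes were grown in medium conditioned by CMG cells and were not stimulated, and the study used male and female mice of 2 to 5 months. No sex, culture day or batch is given for a library, and nothing says whether the 3 samples of a genotype came from separate animals, so p-values measure the spread between these samples, which may be technical. Each library held between 46285176 and 57629638 counts in total. All of these exceed the average number of reads per sample that the paper gives, so they cannot be taken as numbers of reads. The 8 macrophage markers *Adgre1*, *Csf1r*, *Cd68*, *Itgam*, *Fcgr1*, *Mertk*, *Lyz2* and *Cd14* were all measured, with a summed level of 37461 to 38369 counts per 1000000 (CPM) in wild-type against 21448 to 21968 CPM in *Scd2-m/-m* libraries (1 called higher and 4 lower). Most of that difference was *Lyz2*, at 22751 ± 584 and 9029 ± 357 CPM (SD, n = 3 each), and its part in the results below was not tested. Also called lower were *Adgre1* (log2 fold change −0.49, FDR = 0.00428), *Csf1r* (−0.38, FDR = 0.00158) and *Mertk* (−0.33, FDR = 0.00384), each without overlap. *Cd68* was the marker called higher (0.22, FDR = 0.0379). *Lyz2* is the lysozyme M gene, for which the Cre is named, so the summed level is not read here as an amount of macrophages. For *Scd2* itself, wild-type replicates 1, 2 and 3 held 66.9, 77.8 and 62.7 CPM, and 59.5, 38.0 and 39.8 CPM were left in *Scd2-m/-m* replicates 1, 2 and 3. All *Scd2-m/-m* libraries lay below all wild-type libraries, but replicate 1 came close to them. By qPCR, another measure, the paper found only a small part of the wild-type *Scd2* transcript left in such BMDMs. Counts per gene, as used here, do not separate the floxed part of *Scd2* from the rest. The log2 fold change of *Scd2* was −0.59 (standard error 0.19, FDR = 0.10), while limma-voom called it lower with all 6 libraries (−0.62, FDR = 0.0105). Without *Scd2-m/-m* replicate 1 the edgeR value was −0.83 (FDR = 8.87e-05).

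DNA replication begins at origins. The origin recognition complex marks them, CDC6 and CDT1 load the ring-shaped MCM2-7 helicase there, and this loading is called licensing. CDC7 kinase, MCM10, CDC45 and the GINS complex then start the helicase, primase and the DNA polymerases copy both strands around the sliding clamp PCNA, and FEN1 and LIG1 process and join the Okazaki fragments of the lagging strand. Ribonucleotide reductase, thymidylate synthase, thymidine kinase and dUTPase supply the deoxynucleotides. Many of these genes are classic targets of E2F transcription factors, which switch them on before and during S phase, and cells that have left the cell cycle keep many of them low.

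RefSeq windows from 250 bases before to 50 bases after the transcription start (build GRCm38.p6) were matched by symbol for 46 of the 54 genes, and *Mcm4*, *Gmnn*, *Gins1*, *Gins2*, *Gins4*, *Prim2*, *Pole* and *Rfc2* had no entry. Both strands were searched for 4 forms of the motif, TTTCCCGC, TTTGGCGC, TTTGCCGC and TTTCGCGC, some of which overlap each other on opposite strands. A match was found in 17 of the 46 (37.0%), against 704 of all 27025 genes with a window (2.60%) and 478 of the 10188 with a window that were tested for expression (4.69%). It was found in 5 of 15 genes that were called higher in *Scd2-m/-m* BMDMs (33.3%, as set out below) and in 12 of 31 that were not (38.7%). A match is a run of letters and not a bound site. The CHR motif (TTTGAA or TTCGAA, either strand), known from promoters of mitotic genes, was present in 11 of the 46 (23.9%), in 21.7% of all genes and in 16.6% of those tested. It was found in 1 of the 15 called genes (6.67%) and in 10 of the 31 that were not called (32.3%).

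The bases next to the start are shown for the 4 called genes with a match and the smallest p, each 5′ to 3′ on the strand of its gene and ending at the base before the start, with the matches in capitals. They are *Uhrf1* at chr17:56304113-56304312 on the plus strand, *Mcm5* at chr8:75109309-75109508 on the plus strand, *Mcm6* at chr1:128359706-128359905 on the minus strand and *Cdc6* at chr11:98907982-98908150 on the plus strand. None of these bases is exonic in GENCODE M21, and the *Uhrf1* and *Cdc6* stretches lie inside the annotated gene, after an earlier start.
Uhrf1: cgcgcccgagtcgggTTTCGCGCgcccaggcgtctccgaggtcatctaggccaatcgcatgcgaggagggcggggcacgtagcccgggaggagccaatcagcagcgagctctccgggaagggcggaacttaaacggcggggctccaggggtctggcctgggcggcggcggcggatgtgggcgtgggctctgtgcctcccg
Mcm5: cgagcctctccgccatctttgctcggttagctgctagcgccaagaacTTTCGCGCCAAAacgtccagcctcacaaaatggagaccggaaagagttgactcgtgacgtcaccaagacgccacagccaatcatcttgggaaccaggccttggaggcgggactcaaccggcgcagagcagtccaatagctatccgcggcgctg
Mcm6: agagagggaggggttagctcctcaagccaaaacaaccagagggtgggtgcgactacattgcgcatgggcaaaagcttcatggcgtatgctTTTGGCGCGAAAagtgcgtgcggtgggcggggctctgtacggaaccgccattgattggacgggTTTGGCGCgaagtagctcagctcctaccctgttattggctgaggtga
Cdc6: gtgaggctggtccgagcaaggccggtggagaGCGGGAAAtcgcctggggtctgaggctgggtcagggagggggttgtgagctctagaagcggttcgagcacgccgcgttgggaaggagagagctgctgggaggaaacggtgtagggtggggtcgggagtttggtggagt
The match of *Uhrf1* begins at position −185 from the start. In *Mcm5* a pair of overlapping matches on opposite strands begins at −153 and −149. *Mcm6* has such a pair at −110 and −106 and a further match at −47. *Cdc6* has its match at −138 on the opposite strand, so it reads there as the reverse complement of TTTCCCGC.

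Transcripts of 17 of the 54 genes were higher in *Scd2-m/-m* than in wild-type BMDMs at a false discovery rate (FDR) below 0.05, and 0 were lower. The background is 9.65% of the 14778 genes tested called higher and 7.84% called lower, with 17.5% called in either direction. Among tested genes with a mean CPM in the range of these 54, 10.6% were called higher. The counts by role given below rest on few genes each and are to be read against these shares. The 17 are *Rrm2*, *Uhrf1*, *Mcm10* and *Pole*, with a log2 fold change above 1, *Prim1*, *Cdc6*, *Chaf1b*, *Cdc7* and *Tyms*, between 0.5 and 1, and *Tk1*, *Mcm5*, *Rrm1*, *Gmnn*, *Mcm6*, *Pcna*, *Rfc1* and *Lig1*, below 0.5. At an unadjusted p below 0.05 the edgeR quasi-likelihood test found 27 higher and 2 lower, which were *Orc2* and *Pold2*, while DESeq2 and limma-voom likewise called 0 lower at the FDR threshold. Every one of the 54 passed the filter on low counts, with 42 to 6090 counts per library.

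The log2 fold change was positive for 44 genes and negative for 10, with a median of 0.26 beside 0.00387 over all genes tested, and its standard error ran from 0.06 to 0.28. The 3 *Scd2-m/-m* libraries all lay above the 3 wild-type libraries for 31 genes, against 17.9% of all genes tested, and all below for 2 genes, *Orc2* and *Gins4*, against 17% of all. The other 21 overlapped. Over all genes tested, 34.9% had genotypes that did not overlap, in either direction. The summed level of the 54 genes went from 791 ± 21.6 to 895 ± 6.60 CPM (SD, n = 3 each), which is 113% of wild-type. Without *Scd2-m/-m* replicate 1, the library in which *Scd2* was closest to wild-type, 12 genes were called higher and 1 lower, and leaving out other libraries gave 10 to 15 higher, the fewest without wild-type replicate 2. In such bulk samples, more cells that hold a transcript and more transcript per cell cannot be told apart.

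**Figure D1:**
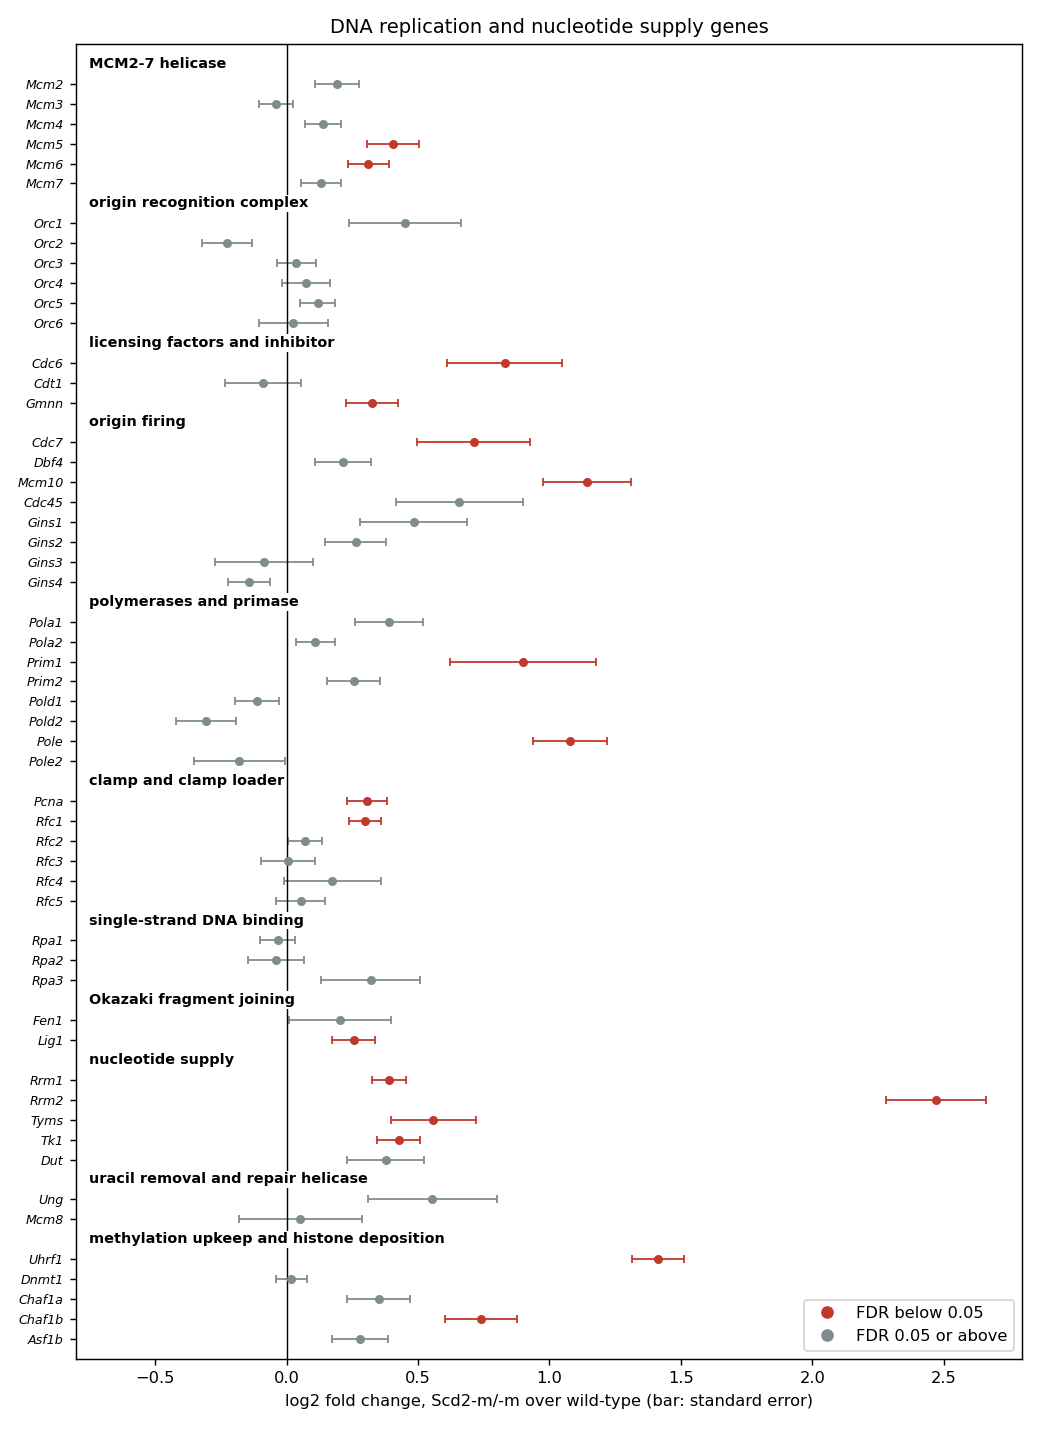
Log2 fold change of each of the 54 genes, *Scd2-m/-m* over wild-type, grouped by role, with the standard error as a bar (n = 3 libraries per genotype). The 17 red points passed an FDR below 0.05 and all lie right of 0, with *Rrm2* at 2.47 farthest out, while the origin recognition and single-strand DNA binding groups hold grey points alone.

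The genes that read the fewest counts in wild-type BMDMs had the larger log2 fold changes. Of 21 genes with a wild-type mean under 5 CPM, 9 were called higher, with a median log2 fold change of 0.56. Among all tested genes under that limit 9.9% were called higher, and their median was 0.09. Many of those lie below 1 CPM, and among tested genes of 1 to 5 CPM 12.0% were called higher, with a median of 0.04. Of 33 genes at 5 CPM or more, 8 were called higher, with a median of 0.12, beside 9.51% and −0.01 for all tested genes at such a level. Across the 54 genes the log2 fold change had a Spearman correlation of −0.53 with the wild-type CPM. This is a description across genes of the same 6 libraries, which share the wild-type values on both axes.

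**Figure D2:**
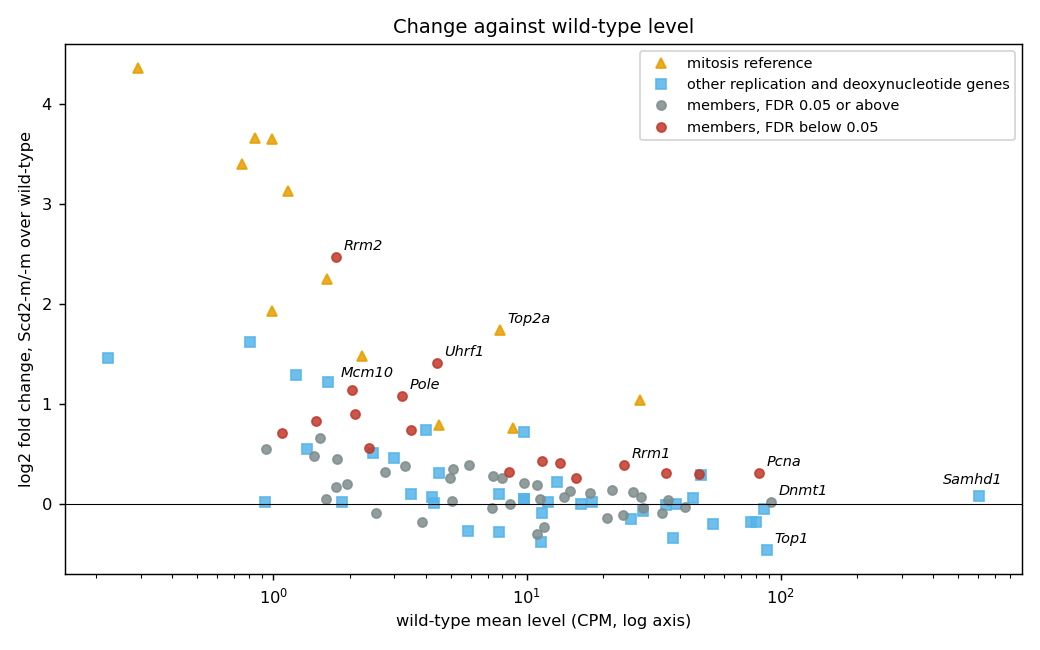
Log2 fold change, *Scd2-m/-m* over wild-type, against the wild-type mean level in CPM on a log axis (not scaled by gene length), 1 point per gene, with circles for members (red where called), squares for other replication and deoxynucleotide genes and triangles for mitosis genes. The 4 members above 1 on the vertical axis have wild-type means between 1.78 and 4.41 CPM, while *Dnmt1* at 91.8 CPM and *Pcna* at 82.4 CPM lie at 0.02 and 0.31.

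In the origin recognition complex, the 6-subunit machine that marks origins, 0 of 6 genes were called by edgeR's quasi-likelihood test, DESeq2 or limma-voom (unadjusted p below 0.05 in the first for *Orc2* alone), and the median log2 fold change was 0.05. *Orc3* had the highest level per length of the group, 5.93 CPM per kilobase of annotated exon (RPKM) in wild-type against 6.08 RPKM in *Scd2-m/-m*. It stood at 33.8, 36.5 and 38.0 CPM in wild-type libraries and at 35.1, 35.4 and 40.6 CPM in *Scd2-m/-m* libraries, here and below in the order of replicates 1, 2 and 3. The genotypes overlapped, and the log2 fold change was 0.04 (standard error 0.07, FDR = 0.788). *Orc1*, the subunit whose amount follows the cell cycle, was at 1.78 ± 0.346 and 2.42 ± 0.550 CPM (log2 fold change 0.45, FDR = 0.171). *Orc2* was at 11.7 ± 0.353 and 9.96 ± 0.827 CPM (−0.23, FDR = 0.119), and 29.8% of its exonic bases are shared with *Nif3l1* on the other strand, whose reads may not be told apart since the use of strand in counting is not given. *Orc4*, *Orc5* and *Orc6* lay between 0.03 and 0.12 on the log2 scale. Over all genes tested 17.5% were called in either direction, so 0 of 6 says little by itself.

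Among the licensing factors, *Cdc6* and the inhibitor *Gmnn* were higher and *Cdt1* was not called. *Cdc6*, the loader that brings the helicase to the origin, read 1.09, 1.34 and 1.99 CPM in wild-type against 2.88, 2.37 and 2.62 CPM in *Scd2-m/-m* libraries. The lowest *Scd2-m/-m* library was above the highest wild-type one, and the log2 fold change was 0.83 (standard error 0.22, FDR = 0.0184). The call was lost without wild-type replicate 1 (FDR = 0.0553), wild-type replicate 2 (FDR = 0.0798) or *Scd2-m/-m* replicate 1 (FDR = 0.0589). *Gmnn* encodes geminin, which binds CDT1 and blocks repeated licensing. It read 9.31, 8.39 and 7.83 CPM in wild-type against 10.5, 11.1 and 10.3 CPM in *Scd2-m/-m* libraries, again without overlap. Its log2 fold change of 0.32 (standard error 0.10, FDR = 0.0365) was lost without any 1 library other than wild-type replicate 1, with an FDR of up to 0.154. *Cdt1*, the partner of geminin, had 34.1 ± 6.80 and 32.1 ± 3.87 CPM (−0.09, FDR = 0.736).

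For the MCM2-7 helicase, the ring that unwinds DNA, 2 of 6 subunits were called higher, and in 5 of 6 all *Scd2-m/-m* libraries lay above. Over all genes tested, 9.65% were called higher and 17.9% lay above in this way. *Mcm5* stood at 14.5, 12.5 and 13.4 CPM in wild-type against 20.2, 17.3 and 15.9 CPM in *Scd2-m/-m* libraries. Replicate 1 was the highest in both genotypes, and the log2 fold change was 0.41 (standard error 0.10, FDR = 0.0114). The call was lost without wild-type replicate 2 (FDR = 0.0726). *Mcm6* stood at 39.4, 34.7 and 31.9 CPM in wild-type against 45.9, 43.3 and 42.3 CPM in *Scd2-m/-m* libraries, with no overlap. Its log2 fold change was 0.31 (standard error 0.08, FDR = 0.0137), and it was no longer called without wild-type replicate 2 (FDR = 0.0733), wild-type replicate 3 (FDR = 0.0558) or *Scd2-m/-m* replicate 2 (FDR = 0.0572). The promoters of both carry the motif pairs shown above. Matches were also found for *Mcm3* and *Mcm7*, which were not called, so a match does not set the called subunits apart. *Mcm2*, *Mcm4* and *Mcm7* had log2 fold changes of 0.19, 0.14 and 0.13, each with all *Scd2-m/-m* libraries above and none called, and *Mcm3* was at −0.04 with overlap. The 6 subunits assemble in equal numbers, and their levels per length in wild-type ran from 1.58 RPKM for *Mcm2* to 7.66 RPKM for *Mcm3*. These values rest on annotated exonic lengths of 6956 bases for *Mcm2* and 3752 for *Mcm3*, so they do not show unequal numbers of transcripts.

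Of the 8 genes that fire a licensed origin, *Mcm10* and *Cdc7* were called higher. *Mcm10* (chromosome 2, 4989714 to 5012791, minus strand, GRCm38) encodes a scaffold that activates the loaded helicase. It read 1.59, 2.41 and 2.12 CPM in wild-type against 4.62, 4.64 and 4.25 CPM in *Scd2-m/-m* libraries. The *Scd2-m/-m* libraries lay close together and far above the others, and the log2 fold change was 1.14 (standard error 0.17, FDR = 3.51e-04). *Cdc7*, the kinase that phosphorylates the MCM ring, read 1.11, 0.997 and 1.14 CPM in wild-type against 1.90, 1.47 and 1.94 CPM in *Scd2-m/-m* libraries. These also did not overlap (0.71, standard error 0.21, FDR = 0.0334), but the call was lost without any 1 library other than *Scd2-m/-m* replicate 2, with an FDR of up to 0.116. Its activating subunit *Dbf4* was at 9.71 ± 0.743 and 11.3 ± 1.37 CPM (0.21, FDR = 0.199).

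*Cdc45*, a part of the active helicase, had a log2 fold change of 0.66 with a standard error of 0.24 (FDR = 0.0798) and overlapping libraries. The 4 subunits of the GINS complex, which work together as 1 unit in the active helicase, had values of both signs. *Gins1* and *Gins2* were at 0.48 (FDR = 0.124) and 0.26 (FDR = 0.147) with all *Scd2-m/-m* libraries above. *Gins3* was at −0.09 with overlap. *Gins4* was at −0.14 (FDR = 0.249) with all *Scd2-m/-m* libraries below, at 20.7 ± 0.530 and 18.8 ± 1.62 CPM. None of the 4 was called, and *Gins2* shares 67.3% of its exonic bases with *Gse1* on the other strand.

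Among the polymerases and primase, *Pole* and *Prim1* were called higher, and the other 6 genes were not called. *Pole* (chromosome 5, 110286306 to 110337474, plus strand) encodes the catalytic subunit of DNA polymerase epsilon, which copies the leading strand. Wild-type libraries held 2.76, 3.40 and 3.50 CPM and *Scd2-m/-m* libraries 7.19, 5.91 and 7.31 CPM. Each *Scd2-m/-m* library was well above every wild-type library, and the log2 fold change was 1.08 (standard error 0.14, FDR = 1.33e-04). *Pole2*, the second subunit of the same enzyme, had a negative value, at 3.84 ± 0.846 and 3.39 ± 0.348 CPM, with overlap (−0.18, FDR = 0.529). *Prim1*, the primase subunit that makes the RNA primer, read 1.25, 3.19 and 1.85 CPM in wild-type against 3.26, 4.18 and 4.25 CPM in *Scd2-m/-m* libraries. Wild-type replicate 2 nearly reached the lowest *Scd2-m/-m* library. The log2 fold change of 0.90 had the largest standard error of the called genes, 0.28 (FDR = 0.0487), and leaving out any 1 library other than wild-type replicate 2 ended the call, with an FDR of up to 0.161.

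*Pola1*, the catalytic subunit of the polymerase that extends the primer, was just short of the threshold. It read 6.18, 6.50 and 5.02 CPM in wild-type against 6.88, 7.80 and 8.50 CPM in *Scd2-m/-m* libraries, without overlap (0.39, standard error 0.13, FDR = 0.0504), and DESeq2 called it (FDR = 0.0418). Its partners *Pola2* and *Prim2* were at 0.11 and 0.26. Of the lagging-strand enzyme, polymerase delta, *Pold1* was at −0.11 (FDR = 0.404) and *Pold2* at −0.31 (FDR = 0.0838), with overlapping libraries, and the subunits outside the 54 were at 0.000725 for *Pold3* and 0.06 for *Pold4*. *Pold2* was called lower without *Scd2-m/-m* replicate 1 (FDR = 0.0425).

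The sliding clamp and the large subunit of its loader were higher by small amounts. *Pcna* (chromosome 2, 132249162 to 132253314, minus strand) had the highest level per length of the 54 genes, 34.3 RPKM in wild-type against 42.5 RPKM in *Scd2-m/-m*. It stood at 92.2, 81.5 and 73.5 CPM in wild-type against 102, 99.2 and 105 CPM in *Scd2-m/-m* libraries, with a narrow gap between wild-type replicate 1 and the lowest *Scd2-m/-m* library. The log2 fold change was 0.31 (standard error 0.08, FDR = 0.0121), and the call was lost without wild-type replicate 2 (FDR = 0.0668). Its pseudogene *Pcna-ps2* took 149 to 256 counts per library, and how reads were split between them is not given. *Rfc1*, the large subunit of the clamp loader, read 48.9, 47.8 and 46.4 CPM in wild-type against 56.3, 59.5 and 60.1 CPM in *Scd2-m/-m* libraries. These were tight and well apart, and the log2 fold change of 0.30 (standard error 0.06, FDR = 0.00356) was called under every alternative tried. The small subunits *Rfc2* to *Rfc5* had log2 fold changes of 0.07, 0.00375, 0.17 and 0.05 and none was called.

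Replication protein A, which coats single-stranded DNA, had 0 of 3 genes called by edgeR's quasi-likelihood test (0 also at an unadjusted p below 0.05), DESeq2 or limma-voom, with overlap in each. *Rpa1*, the DNA-binding large subunit, had the highest level per length of them, at 7.50 and 7.32 RPKM. It read 44.2, 40.5 and 40.8 CPM in wild-type against 39.8, 43.3 and 39.5 CPM in *Scd2-m/-m* libraries, and its log2 fold change was −0.03 (standard error 0.07, FDR = 0.778). *Rpa2* was at −0.04 and *Rpa3*, at 2.76 ± 0.376 and 3.45 ± 0.784 CPM, at 0.32 (FDR = 0.277). With 17.5% of all genes tested called in either direction, 0 of 3 says little by itself.

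Of the genes that finish Okazaki fragments, the ligase was called and the nuclease was not. *Lig1* read 15.9, 16.0 and 14.9 CPM in wild-type against 19.7, 19.1 and 17.1 CPM in *Scd2-m/-m* libraries. They did not overlap, and the log2 fold change was 0.26 (standard error 0.08, FDR = 0.0438), the smallest among the called genes. It was the least stable call, lost with DESeq2 (FDR = 0.0553), with limma-voom (FDR = 0.0542) and without any 1 library other than *Scd2-m/-m* replicate 3 (FDR up to 0.165). *Fen1*, the flap endonuclease, was at 1.96 ± 0.383 and 2.26 ± 0.233 CPM (0.20, FDR = 0.528), and 78.8% of its exonic bases lie opposite the antisense gene *Gm10143*.

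Nucleotide supply was the role with the most calls, 4 of 5 genes, and in all 5 the *Scd2-m/-m* libraries lay above the wild-type libraries. Over all genes tested, 9.65% were called higher and 17.9% lay above in this way. *Rrm2* (chromosome 12, 24708241 to 24714146, plus strand) encodes the small subunit of ribonucleotide reductase, which turns ribonucleotides into deoxynucleotides and is made anew in each S phase. It read 1.33, 1.54 and 2.46 CPM in wild-type against 9.19, 9.17 and 11.3 CPM in *Scd2-m/-m* libraries. Replicate 3 was the highest of both genotypes, and even the highest wild-type library lay far below the lowest *Scd2-m/-m* one. The log2 fold change of 2.47 (standard error 0.19, FDR = 2.53e-06), a 5.54-fold difference, was the only one of the 54 above 2. *Rrm1*, the large subunit of the same enzyme (chromosome 7, 102441695 to 102469771, plus strand), read 23.5, 25.2 and 23.9 CPM in wild-type against 31.6, 31.5 and 31.9 CPM in *Scd2-m/-m* libraries. The *Scd2-m/-m* libraries were nearly equal and above all others (0.39, standard error 0.06, FDR = 8.40e-04). Per kilobase of annotated exon, *Rrm2* went from 0.641 to 3.57 RPKM and *Rrm1* from 2.19 to 2.87 RPKM, so per length the small subunit was the lower of the pair in wild-type against the higher in *Scd2-m/-m*. That order rests on exonic lengths of 2771 bases for *Rrm2* and 11012 for *Rrm1*, and in counts *Rrm2* was the lower in all 6 libraries.

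*Tk1*, the cytosolic thymidine kinase that salvages thymidine in dividing cells, read 11.2, 11.5 and 11.7 CPM in wild-type against 16.1, 15.7 and 14.6 CPM in *Scd2-m/-m* libraries. There was no overlap, and the log2 fold change of 0.43 (standard error 0.08, FDR = 0.00269) was called under every alternative. *Tyms*, the synthase that makes thymidylate anew, read 2.24, 2.65 and 2.30 CPM in wild-type against 3.76, 3.76 and 3.06 CPM in *Scd2-m/-m* libraries. The groups were separate (0.56, standard error 0.16, FDR = 0.0273), but the call was lost without wild-type replicate 1 (FDR = 0.0663), wild-type replicate 3 (FDR = 0.0672), *Scd2-m/-m* replicate 1 (FDR = 0.0776) or *Scd2-m/-m* replicate 2 (FDR = 0.115). *Dut*, the dUTPase that keeps uracil out of DNA, was at 3.30 ± 0.510 and 4.29 ± 0.127 CPM (0.38, FDR = 0.0974). The summed level of the 5 genes was 43.1 ± 1.78 CPM in wild-type against 64.8 ± 0.289 CPM in *Scd2-m/-m* BMDMs, 150% of wild-type.

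Of the pair *Ung* and *Mcm8*, 0 were called by edgeR's quasi-likelihood test, DESeq2 or limma-voom, and in the first *Ung* had an unadjusted p below 0.05. *Mcm8*, a helicase of recombination repair, had the higher level per length, 0.434 RPKM in wild-type against 0.450 RPKM in *Scd2-m/-m*. It read 1.21, 1.99 and 1.63 CPM in wild-type against 1.65, 2.03 and 1.34 CPM in *Scd2-m/-m* libraries, which overlapped fully (0.05, standard error 0.23, FDR = 0.913). *Ung*, the glycosylase that removes uracil from DNA, was at 0.941 ± 0.181 and 1.38 ± 0.250 CPM (0.56, FDR = 0.144).

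In the group that restores methylation and chromatin behind the fork, *Uhrf1* and *Chaf1b* were called higher. *Uhrf1* (chromosome 17, 56303321 to 56323486, plus strand) encodes the protein that finds DNA that is methylated on the old strand alone and brings in the maintenance methyltransferase DNMT1. It read 4.35, 4.45 and 4.45 CPM in wild-type against 12.0, 11.3 and 12.0 CPM in *Scd2-m/-m* libraries. The spread within each genotype was small beside the gap, and the log2 fold change was 1.41 (standard error 0.10, FDR = 7.71e-07), a 2.66-fold difference and the smallest p of the 54 genes. *Dnmt1* itself differed little, at 91.8 ± 2.49 and 93.0 ± 3.06 CPM with overlap (0.02, standard error 0.06, FDR = 0.866). *Chaf1b*, a subunit of the chromatin assembly factor that deposits histones on new DNA, read 3.14, 3.30 and 4.05 CPM in wild-type against 6.33, 5.71 and 5.51 CPM in *Scd2-m/-m* libraries. These were separate, and the log2 fold change of 0.74 (standard error 0.14, FDR = 0.00207) was called under every alternative. The partner subunit *Chaf1a* was at 0.35 (FDR = 0.0587) and the histone chaperone *Asf1b* at 0.28 (FDR = 0.0870), both with all *Scd2-m/-m* libraries above. *Chaf1a* shares 52.5% of its exonic bases with *Ubxn6* on the other strand.

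**Figure D3:**
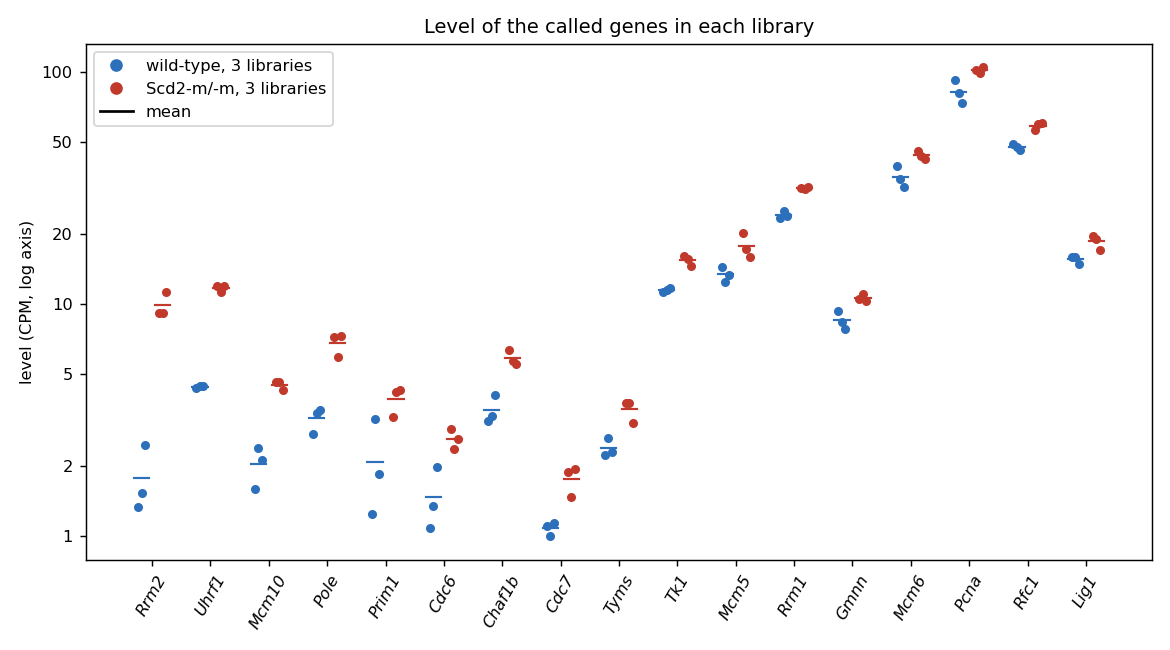
Level in CPM (log axis) of the 17 called genes in each of the 3 wild-type and 3 *Scd2-m/-m* libraries, ordered by log2 fold change, with a line at the mean. In every gene the *Scd2-m/-m* points lie above the wild-type points, by 5.54-fold on average for *Rrm2* on the left and by 1.19-fold for *Lig1* on the right.

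Partners of a complex could be compared inside a library, where scaling between libraries plays no role, for 4 pairs that were chosen with these results known. The log2 ratio of *Rrm2* to *Rrm1* counts was −3.82 ± 0.47 in wild-type against −1.69 ± 0.16 in *Scd2-m/-m* libraries (mean ± SD of 3 libraries), a difference of 2.13. On the linear scale, *Rrm2* had 0.0567, 0.0612 and 0.103 counts for each *Rrm1* count in wild-type against 0.291, 0.291 and 0.354 in *Scd2-m/-m* libraries. For *Pole2* to *Pole* the log2 ratio was 0.24 ± 0.50 in wild-type against −1.0 ± 0.06 in *Scd2-m/-m* libraries, a difference of −1.24. For *Orc1* to *Orc2* it was −2.73 ± 0.27 and −2.06 ± 0.27, a difference of 0.67. For *Gmnn* to *Cdt1* it was −1.99 ± 0.16 and −1.58 ± 0.18, a difference of 0.40. In each of the 4 the genotypes did not overlap. The exact two-sided permutation test gave p = 0.1 for each, which is the smallest that 3 against 3 libraries allow, and p = 0.1 after adjustment over the 4, so none could pass the threshold.

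**Figure D4:**
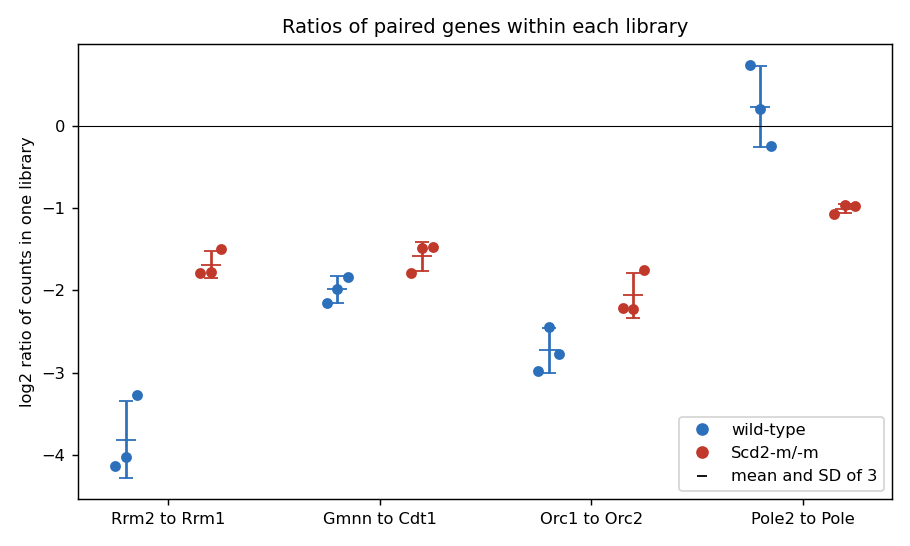
Log2 ratio of the counts of 2 genes within the same library, for 4 pairs, with the mean and SD of the 3 libraries per genotype. *Rrm2* to *Rrm1* rests at −3.82 in wild-type against −1.69 in *Scd2-m/-m* libraries, and *Pole2* to *Pole* is lower in *Scd2-m/-m* libraries while the other 3 ratios are higher.

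Genes of the same processes outside the 54 were read against the share of all tested genes called, 9.65% higher and 7.84% lower. Of 30 other fork and origin genes, 7 were called higher (23.3%) and 3 lower (10.0%), at a median log2 fold change of 0.04, so the share called lower was near that of all genes. *Dna2*, a nuclease and helicase that trims flaps, read 9.03, 9.80 and 10.3 CPM in wild-type against 16.0, 15.7 and 16.3 CPM in *Scd2-m/-m* libraries (0.72, standard error 0.09, FDR = 6.67e-05). *Clspn* encodes claspin, which carries the checkpoint signal at stalled forks, and it read 1.57, 1.82 and 1.55 CPM in wild-type against 3.03, 4.18 and 4.35 CPM in *Scd2-m/-m* libraries (1.22, FDR = 3.93e-04). *Dtl*, which marks CDT1 for destruction, was at 1.23 ± 0.233 and 3.01 ± 0.404 CPM (1.29, FDR = 4.95e-04). *Ticrr*, which helps to fire origins, was at 0.812 ± 0.224 and 2.51 ± 0.592 CPM (1.62, FDR = 5.11e-04). The libraries of the genotypes were separate in all 4, and the calls held under every alternative. *Wdhd1*, *Chtf18* and *Dscc1* were the other 3 called higher. *Chtf18* was not called without any 1 library (FDR up to 0.112), nor *Dscc1* without wild-type replicate 2, *Scd2-m/-m* replicate 2 or *Scd2-m/-m* replicate 3 (FDR up to 0.0843). *Dscc1* passed the filter on low counts only through the *Scd2-m/-m* libraries, which favoured its call in advance. The 3 called lower were *Top1*, *Pole4* and *Rnaseh2c*, with log2 fold changes of −0.46, −0.38 and −0.34. *Top1* encodes a topoisomerase that relieves the twisting of DNA ahead of the fork. *Pole4* encodes a small subunit of polymerase epsilon and *Rnaseh2c* a subunit of the nuclease that removes ribonucleotides. *Pole4* was not called without wild-type replicate 1 (FDR = 0.0661) or 2 (FDR = 0.0563).

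Of 9 other deoxynucleotide genes, 1 was called higher and 0 lower by edgeR's quasi-likelihood test, DESeq2 or limma-voom, with a median log2 fold change of 0.02 (2 lower at an unadjusted p below 0.05 in the first). The share called higher, 11.1%, is near that of all genes. *Dck*, the deoxycytidine kinase of the salvage route, read 47.9, 45.6 and 51.8 CPM in wild-type against 54.8, 58.5 and 64.8 CPM in *Scd2-m/-m* libraries (0.29, FDR = 0.0147), and the call was lost without wild-type replicate 2 (FDR = 0.0958), *Scd2-m/-m* replicate 2 (FDR = 0.0591) or *Scd2-m/-m* replicate 3 (FDR = 0.0545). *Samhd1*, which breaks deoxynucleotides down and is high in macrophages, was picked after its values were seen. It was at 604 ± 23.1 and 637 ± 22.4 CPM with overlap (0.08, FDR = 0.453).

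Of 17 purine and pyrimidine synthesis genes, which make the ribonucleotides upstream, 3 were called higher and 3 lower (17.6% each), with a median of −0.05. Over all genes tested, 9.65% were called higher and 7.84% lower. *Gart*, of purine synthesis, read 28.3, 27.5 and 27.0 CPM in wild-type against 20.1, 17.5 and 18.4 CPM in *Scd2-m/-m* libraries (−0.56, standard error 0.07, FDR = 1.33e-04). *Cad*, which starts pyrimidine synthesis, read 30.8, 27.9 and 25.0 CPM in wild-type against 20.9, 17.8 and 17.0 CPM in *Scd2-m/-m* libraries (−0.59, standard error 0.09, FDR = 6.56e-04). In both, all *Scd2-m/-m* libraries were below all wild-type libraries, and *Impdh2*, which makes the guanine precursor, was the third called lower (−0.35, FDR = 0.00272). *Prps2*, which makes the sugar phosphate that both routes need, was higher at 18.9 ± 0.847 and 25.2 ± 0.925 CPM (0.41, FDR = 0.00122). *Adss* and *Paics*, of purine synthesis, were also called higher. *Paics* (0.20, FDR = 0.0454) was not called with RLE size factors, with limma-voom or without any 1 library other than *Scd2-m/-m* replicate 1 (FDR up to 0.189).

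**Figure D5:**
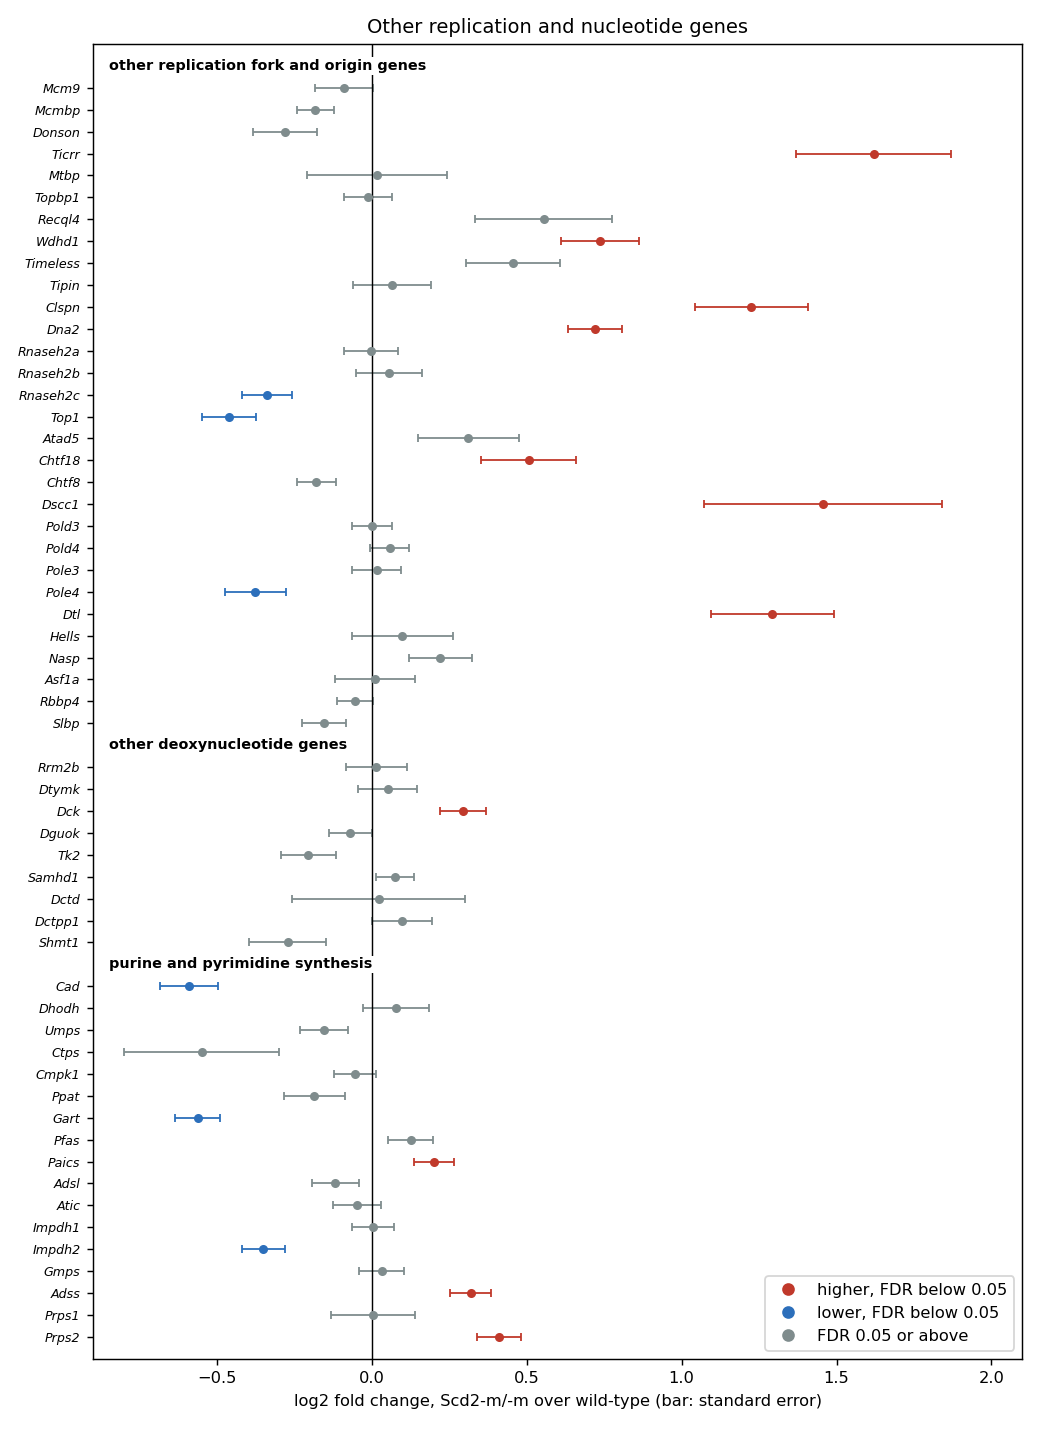
Log2 fold change, *Scd2-m/-m* over wild-type, with its standard error, for 30 other fork and origin genes, 9 other deoxynucleotide genes and 17 purine and pyrimidine synthesis genes. Red points were called higher (7, 1 and 3) and blue points lower (3, 0 and 3), and most grey points sit near 0.

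Genes of the later steps of division were higher as well. Of 12 mitosis and proliferation genes, 12 were called higher, against 9.65% of all genes tested. Their median log2 fold change was 2.09, beside 0.26 for the 54 genes. The 12 were picked with earlier results of these data known, so neither the count nor the median is independent of that choice. Among them, *Cenpf* passed the filter on low counts only through the *Scd2-m/-m* libraries. *Mki67*, a general proliferation marker, read 24.6, 30.1 and 28.7 CPM in wild-type against 57.4, 55.2 and 58.8 CPM in *Scd2-m/-m* libraries (1.04). *Top2a*, the topoisomerase that separates sister chromosomes, read 6.89, 6.92 and 9.78 CPM in wild-type against 25.7, 26.6 and 26.7 CPM in *Scd2-m/-m* libraries (1.74). *Ccna2*, the cyclin of S phase and G2, went from 1.14 ± 0.10 to 10.1 ± 0.859 CPM (3.13), and *Ccnb1*, the cyclin of mitosis, from 1.63 ± 0.0373 to 7.76 ± 1.03 CPM (2.25). *Cdk1*, their kinase, was at 4.50 ± 0.936 and 7.79 ± 0.576 CPM (0.79). The difference between the lists was not tested, and both lists come from the same 6 libraries.

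Of 13 E2F factors, their partners and the pocket proteins that restrain them, 3 were called higher (23.1%), against 9.65% of all genes tested. By edgeR's quasi-likelihood test, DESeq2 or limma-voom 0 were called lower (1 lower at an unadjusted p below 0.05 in the first). *E2f8* and *E2f7*, repressors that are themselves E2F targets, were at 5.45 ± 0.427 and 10.0 ± 0.441 CPM (0.88, FDR = 7.18e-05) and at 0.530 ± 0.0863 and 1.93 ± 0.240 CPM (1.86, FDR = 1.28e-04). The activator *E2f2* read 20.7, 15.0 and 16.6 CPM in wild-type against 35.2, 29.1 and 26.0 CPM in *Scd2-m/-m* libraries (0.78, FDR = 0.00368). *E2f1*, picked after its values were seen, was at 43.0 ± 1.11 and 43.4 ± 3.83 CPM with overlap (0.01, FDR = 0.929).

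Markers of immature and other marrow cells were low, and some of them differed between the genotypes. Over all genes tested, 9.65% were called higher. Of 9 stem and progenitor markers, 7 were tested and 3 (*Flt3*, *Mpo* and *Prtn3*) were called higher, while *Cd34* was at −0.50 (FDR = 0.570). *Flt3* had 8, 2 and 10 counts in wild-type libraries and *Prtn3* 0, 12 and 5. Both passed the filter on low counts only through the *Scd2-m/-m* libraries, so their calls were favoured in advance. The summed level of the 9 was 2.22 to 2.66 CPM in wild-type against 4.04 to 5.40 CPM in *Scd2-m/-m* libraries. Of 8 neutrophil markers, 6 were tested and 4 (*S100a8*, *S100a9*, *Ltf* and *Ngp*) were called higher, with a summed level of 21.3 to 25.4 CPM in wild-type against 32.3 to 41.8 CPM in *Scd2-m/-m* libraries, while *Ly6g* had 0 counts in all wild-type libraries. *Mmp8*, the neutrophil marker with the highest CPM, was at 12.5 ± 1.65 and 10.1 ± 1.87 CPM (−0.31, FDR = 0.146). The 4 B cell markers summed to 0.302 to 0.650 CPM and 1.09 to 1.21 CPM, with 1 of 2 tested (*Cd79a*) called higher. The 4 erythroid markers summed to 0.282 to 0.403 CPM in wild-type against 0.430 to 0.645 CPM in *Scd2-m/-m* libraries, and the 1 tested, *Klf1*, was not called (FDR = 0.603). The 3 mast cell or basophil markers summed to 0.130 to 0.256 CPM and 0.269 to 0.705 CPM, and the 5 T or NK cell markers to at most 0.172 CPM in any library, with *Ncr1* at 0 in all 6. None of these 8 passed the filter on low counts, so none was tested. The 4 stromal markers summed to 2.20 to 4.03 CPM in wild-type against 2.55 to 2.83 CPM in *Scd2-m/-m* libraries, with 0 of 3 tested called by edgeR's quasi-likelihood test, DESeq2 or limma-voom (1 lower at an unadjusted p below 0.05 in the first, *Pdgfrb*). The part of these cells in the replication differences was not tested.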

How the data were processed

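RNA of unstimulated BMDMs, 3 wild-type and 3 *Scd2-m/-m* samples, was poly(A)-selected and sequenced on an Illumina NovaSeq. The authors used STAR for alignment to GRCm38 (Ensembl release 76, primary assembly) and deposited raw counts, which are whole numbers. The tool that counted the reads and its use of strand were not given in the sources used here. Of counts between 1 and 20, 60.9% to 64.9% were even, so what 1 count stands for is not known, and halved counts were tried as an alternative. The deposited table of the authors' own comparison, with fold changes, confidence limits, p-values, statistics and log2 CPM, was not used. Of 40757 table entries, 276 repeats of a gene were removed.

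Genes passing filterByExpr (14778) were compared with the quasi-likelihood test of edgeR 4.0.16 (TMM factors of 0.979 to 1.02, robust fit, genotype as the only term) in R 4.3.3, with Benjamini-Hochberg adjustment over all of them (FDR) and calls at an FDR below 0.05. The standard error is the log2 fold change over the square root of the F statistic. CPM are counts over the TMM-scaled library size, and RPKM divide these by the union exonic length in GENCODE M21. The members had 42 to 6090 counts per library, which with the spread between 3 replicates limits the precision. A gene of the list of other deoxynucleotide genes is not reported here and is left out of that list's counts. The members, gene lists, pairs and motifs were chosen with earlier results of these data known. Values per library are given for every called member and, in roles without a call, for the member with the highest level per length, of other lists for at most the 4 genes with the smallest p, and of the mitosis list for *Mki67*, *Top2a*, *Cdk1*, *Ccna2* and *Ccnb1* whatever their p. The alternatives were RLE and upper-quartile factors, DESeq2 1.42.0, limma-voom (limma 3.58.1), no filter, a filter of 10 counts in every library, halved counts, the replicate number as a block, 0.5 counts added in ratios, and each library left out.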

Additional observations from a re-analysis of the deposited data

How the results depend on the processing

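The number of the 54 genes called higher, 17, stayed within 16 to 19 under every alternative that kept all 6 libraries, and was 10 to 15 with 1 library left out, the fewest without wild-type replicate 2, when calls over all genes also dropped from 2585 to 1490. Of the 17, 16 or 17 were called again with all libraries and 10 to 14 with 1 left out, and 8 (*Rrm2*, *Uhrf1*, *Mcm10*, *Pole*, *Chaf1b*, *Tk1*, *Rrm1* and *Rfc1*) were called under every alternative. The number called lower, 0, was 1 with no filter and 0 to 1 with a library left out. For the other deoxynucleotide genes, 1 called higher (*Dck*) became 0 to 1 with a library left out, and 0 called lower became 1 with no filter (*Tk2*) and 0 to 1 with a library left out. Signs turned only for genes near 0 that were not called. *Rfc3* was at −0.0015 with RLE factors and −0.0016 with DESeq2. With 1 library left out, the log2 fold change ran from −0.0609 to 0.0666 for *Rfc3*, from −0.0338 to 0.0758 for *Orc3*, from −0.000224 to 0.143 for *Orc4*, from −0.0537 to 0.120 for *Orc6*, from −0.217 to 0.0728 for *Cdt1*, from −0.276 to 0.0410 for *Gins3*, from −0.0762 to 0.00683 for *Rpa1*, from −0.119 to 0.231 for *Mcm8*, from −0.00461 to 0.0436 for *Dnmt1* and from −0.0303 to 0.0853 for *E2f1*. The cause of these changes was not tested beyond the smaller number of libraries.

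Whether the replicate numbers pair the samples is not given. Same-numbered libraries correlated in their deviations from the group means at 0.133, −0.0686 and 0.111, against −0.166 to 0.0810 for other numbers. Replicates 1 and 3 correlated best with their own number and replicate 2 did not, so these values do not settle the pairing. With the replicate number as a block, 17 of the 54 were called higher and 1 lower (*Pold2*), 1 of the other deoxynucleotide genes was called higher and 1 lower (*Tk2*), and 2974 genes were called in all.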
